A study of Canis lupus familiaris with 10 samples.

Results

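The miR-148/152 family was followed across canine lymph nodes through its 3 members in the deposited table, cfa-miR-148a, cfa-miR-148b and cfa-miR-152, which are 3 of the 320 miRNAs listed there. They were chosen by name, because miR-148a was the most abundant miRNA of most libraries. Abundance therefore took part in the choice, and the share and rank of miR-148a among the reads of a library are given as a description with no test. All 3 members passed the filter on low counts, which kept 247 of the 320 miRNAs for testing.

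The series holds small RNA sequencing of 10 fresh frozen lymph nodes, where Healthy2 to Healthy5 name the 4 nodes of healthy dogs and DLBCL1 to DLBCL6 the 6 of dogs with diffuse large B-cell lymphoma (DLBCL), and asks which miRNAs are altered in the tumour. The labels give a disease state and no age, strain or treatment. By the study's methods the DLBCL nodes were biopsies of client-owned patients of several breeds and both sexes, whereas the healthy nodes were taken after euthanasia from young female crossbred dogs kept for research, so that origin, breed, sex, age and sampling cannot be told apart from diagnosis. Each library is 1 dog, and each node is bulk tissue, in which fewer cells of a type and less RNA per cell cannot be told apart.

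miRNAs are short RNAs that bind partly matching sites in messenger RNAs, mainly through the bases near their 5′ end known as the seed, and lower the output of those messenger RNAs. The members of this family share their seed and so share many predicted targets, among them the messenger RNA of DNMT1, the enzyme that maintains DNA methylation when cells divide. In lymphoid tissue miR-148a is known for roles in B-cell tolerance and in plasma cell differentiation, and outside it the miRNA is abundant in pancreas and liver.

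Each member has a gene of its own. In the RefSeq gene table (assembly UU_Cfam_GSD_1.0, which is not the CanFam3.1 build of the submitters' processing notes and is used here for names and neighbours only) MIR148A lies in no other gene, between the protein-coding genes NPVF and NFE2L3. MIR148B lies within COPZ1 and MIR152 within COPZ2, a pair of related genes that encode zeta subunits of the coatomer, the coat of vesicles that move between the Golgi and the endoplasmic reticulum. MIR152 is flanked by CDK5RAP3 and NFE2L1, and NFE2L1 and NFE2L3, the neighbours of MIR152 and MIR148A, encode related transcription factors.

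The libraries held 10686441 to 25784861 miRNA reads in DLBCL and 30432969 to 34709421 in healthy nodes. This was not a matter of depth alone. By the study's sequencing statistics, miRNA reads were a larger share of the mapped small RNA reads in every healthy library than in any DLBCL library. That difference in library composition cannot be told apart from diagnosis, and its cause was not tested. The factors of the trimmed mean of M values (TMM), which scale library sizes so that most miRNAs are level between libraries, ran from 0.51 in Healthy2 to 2.03 in DLBCL6. In the study's sequencing statistics all 4 healthy libraries and DLBCL4 and DLBCL6 had a lower share of bases at quality Q30 than DLBCL1, DLBCL2, DLBCL3 and DLBCL5, which makes a lower and a higher Q30 group. Among the marker lists, the 4 miRNAs of mature lymphocytes summed to 8119 to 21051 CPM (counts scaled to a common library total with these factors) in DLBCL and 10973 to 27698 in healthy nodes. The 3 red blood cell miRNAs (miR-451, miR-144 and miR-486) summed to 5171 to 35566 CPM in DLBCL and 808 to 1070 in healthy nodes, and 2 of the 3, miR-451 and miR-486, were called higher by edgeR (adjusted p under 0.05 and log2 fold change over 1), against 3.64% of all miRNAs tested. DESeq2 called miR-451 and miR-144 higher, against 12.6% of all. The entries miR-486 and miR-486-3p had nearly equal values in every library, so that their reads cannot be told apart.

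miR-148a alone made up more than 50% of the miRNA reads of every healthy node and less than 40% of those of every DLBCL node. Its share was 73.6% in Healthy2, 55.7% in Healthy3, 63.0% in Healthy4 and 51.5% in Healthy5, with a mean of 61.0% ± 9.67 (SD, n = 4). In DLBCL the share was 29.9% in DLBCL1, 32.8% in DLBCL2, 39.0% in DLBCL3, 29.4% in DLBCL4, 38.8% in DLBCL5 and 17.8% in DLBCL6, with a mean of 31.3% ± 7.80 (SD, n = 6). The ranges did not overlap, DLBCL6 being the lowest library and Healthy2 the highest. How many of all miRNAs separate the groups on this scale was not counted, and on TMM-scaled CPM the groups overlapped for miR-148a. The widest 95% Wilson interval of these shares was 0.0549 percentage points. It covers the counting of reads within a library and no difference between dogs. Reads without molecular identifiers are not independent molecules, so it does not measure the error in molecules either.

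**Figure D1:**
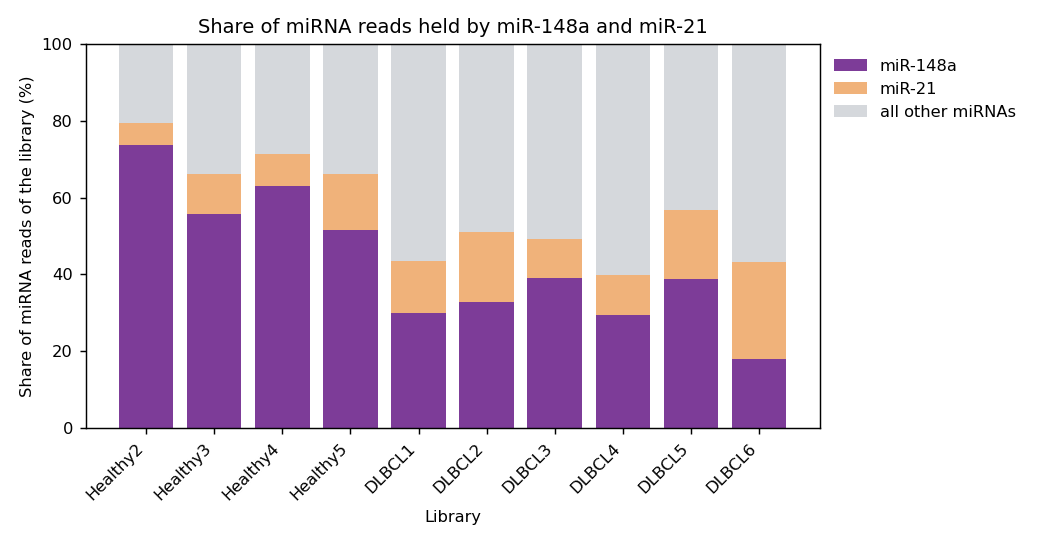
Stacked bars give the share of the miRNA reads of each library (%, vertical axis) held by miR-148a, by miR-21 and by all other miRNAs, for 4 healthy and 6 DLBCL lymph nodes (horizontal axis). miR-148a holds 51.5% to 73.6% in the healthy nodes and 17.8% to 39.0% in the DLBCL nodes, and miR-21 exceeds it only in DLBCL6.

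miR-148a was the most abundant miRNA in 9 of the 10 libraries and the second in DLBCL6. There miR-21, an miRNA often raised in tumours, came first with 25.4% of the reads. In the other 9 libraries miR-21 was second, with 5.95% to 18.1%. The lead of the first miRNA over the second ranged from 12.4-fold in Healthy2 to 1.42-fold in DLBCL6.

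miR-148b and miR-152 were moderately abundant. miR-148b held 0.0522% to 0.118% of the reads of a healthy node and 0.0855% to 0.229% of a DLBCL node, and its rank by reads was 41 to 46 in healthy and 33 to 47 in DLBCL nodes. miR-152 held 0.0797% to 0.194% of the reads in healthy nodes and 0.0142% to 0.264% in DLBCL nodes. Its rank was 32 to 42 in healthy nodes and ran from 40, in DLBCL6, to 75, in DLBCL3 and DLBCL5.

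Within the family miR-148a supplied 97.5% of the reads in DLBCL6 and up to 99.8% in Healthy2. The share of all miRNA reads held by the whole family, 31.5% ± 7.70 in DLBCL (SD, n = 6) and 61.2% ± 9.60 in healthy nodes (SD, n = 4), was therefore nearly that of miR-148a. The order below miR-148a differed between libraries. miR-152 exceeded miR-148b in all 4 healthy nodes and in DLBCL6, and miR-148b exceeded miR-152 in the other 5 DLBCL nodes. Mature miRNAs are of nearly equal length, so read counts were compared between members without a length term. The members have related sequences, and how reads that match more than 1 of them were divided in the counting was not tested.

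Levels were then compared between DLBCL and healthy nodes on CPM scaled with the TMM factors, and each member was tested with edgeR's quasi-likelihood test over the 247 miRNAs with Benjamini-Hochberg adjustment. A miRNA was called at an adjusted p under 0.05 with a log2 fold change beyond 1 in either direction, which 14 of 247 miRNAs met (5.67%), 9 of them higher in DLBCL (3.64%) and 5 lower (2.02%). None of the 3 family members was called by edgeR. In simulated counts this fit recovered only 6.25% of changes at a log2 fold change of 1.5, so a missing call does not show an unchanged level. At an unadjusted p under 0.05, which 66 of the 247 reached (26.7%), 2 of the 3 members passed, miR-148a and miR-152, both lower in DLBCL, as were 23 of the 247 (9.31%, against 17.4% higher). The same 2 members had a log2 fold change under -1, which held for 45 of the 247 (18.2%). DESeq2 called 1 of the 3, miR-152, against 41 of the 247 miRNAs (16.6%), 10 of them lower (4.05%) and 31 higher (12.6%). The CPM of DLBCL and healthy nodes overlapped for all 3 members, whereas 32 of the 247 miRNAs had no overlap (13.0%), 15 being lower (6.07%) and 17 higher (6.88%) in DLBCL.

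miR-148a stood at 1452807 CPM in Healthy2, 628870 in Healthy3, 1007262 in Healthy4 and 464397 in Healthy5, where values larger than the CPM total of an unscaled library arise because the TMM-scaled size of Healthy2 and Healthy4 is smaller than their read total. In DLBCL the lowest value was 87821 CPM (DLBCL6), the median 250254 and the highest 556146 (DLBCL5). All 6 DLBCL nodes lay below the healthy median, 4 of them below every healthy node, and DLBCL3 (472788) and DLBCL5 lay above Healthy5. The fitted log2 fold change was -1.58 (SE 0.49), a 2.99-fold lower level in DLBCL, with an adjusted p of 0.0806 in edgeR and an unadjusted p of 0.00668. An exact two-sided permutation test of the mean log2 CPM gave a difference of -1.70 with p = 0.019, where 0.00476 is the smallest p that the 210 divisions into 6 and 4 nodes allow.

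The Q30 group moved with the size of the miR-148a difference. With only the lower Q30 group, DLBCL4 and DLBCL6 against the 4 healthy nodes, the log2 fold change was -2.81 with an edgeR adjusted p of 0.015. With the Q30 group as a covariate it was -2.80 with an edgeR adjusted p of 0.0271. No healthy library is in the higher group, so both settings rest on the same comparison and are not separate results. DLBCL4 and DLBCL6 are also the DLBCL nodes with the least miR-148a, so an effect of Q30 cannot be told apart from these nodes. Without DLBCL5 it was -1.85 and was called, with an adjusted p of 0.0381 in edgeR. In every one of the 24 alternative settings the level was lower in DLBCL, with log2 fold changes from -2.81 to -0.96, and 7 of them called it.

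miR-148b was nearly level among healthy nodes and somewhat higher in most DLBCL nodes. It stood at 1030 CPM in Healthy2, 1033 in Healthy3, 982 in Healthy4 and 1065 in Healthy5, with a mean of 1027.6 ± 34.3 (SD, n = 4). In DLBCL it stood at 1097 in DLBCL1, 1314 in DLBCL2, 2774 in DLBCL3, 1276 in DLBCL4, 1224 in DLBCL5 and 956 in DLBCL6, with a mean of 1440 ± 666 (SD, n = 6). DLBCL3 was far above the rest, 5 of the 6 DLBCL nodes lay above every healthy node, and DLBCL6 lay below every healthy node. The log2 fold change was 0.49 (SE 0.37) with an edgeR adjusted p of 0.382, and the exact two-sided permutation test gave a difference of 0.39 with p = 0.148.

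No alternative setting called miR-148b, and its log2 fold change stayed positive, from 0.11 to 1.10, in all 24. The small spread among healthy nodes depended on the scaling. The SD of log2 CPM over the 4 healthy nodes was 0.049 with TMM, the smallest of the 247 miRNAs tested. With DESeq2's size factors it was 0.16 and took place 21 from the smallest. Scaled to total miRNA reads it was 0.54, in place 75, and to total reads without miR-148a it was 0.23, in place 37. The DESeq2 and last scalings were added after the data had been seen.

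miR-152 was lower in 5 of the 6 DLBCL nodes than in every healthy node. It stood at 1573 CPM in Healthy2, 1218 in Healthy3, 1396 in Healthy4 and 1744 in Healthy5, with a mean of 1483 ± 227 (SD, n = 4). The DLBCL nodes held 375 in DLBCL1, 722 in DLBCL2, 172 in DLBCL3, 446 in DLBCL4, 250 in DLBCL5 and 1301 in DLBCL6, with a mean of 544 ± 416 (SD, n = 6). DLBCL6 alone lay in the healthy range, and DLBCL3, the node with the highest miR-148b, had the lowest miR-152.

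For miR-152 the log2 fold change was -1.45 (SE 0.51), a 2.72-fold lower level in DLBCL, with an adjusted p of 0.109 and an unadjusted p of 0.0150 in edgeR. The exact two-sided permutation test gave a difference of -1.76 with p = 0.019. Without DLBCL6 the fold change was -1.88 and was called, with an adjusted p of 0.0414 in edgeR. In DESeq2 it was -1.50 with an adjusted p of 0.0307. Within the lower Q30 group it was -0.77 with an adjusted p of 0.319 in edgeR.

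**Figure D2:**
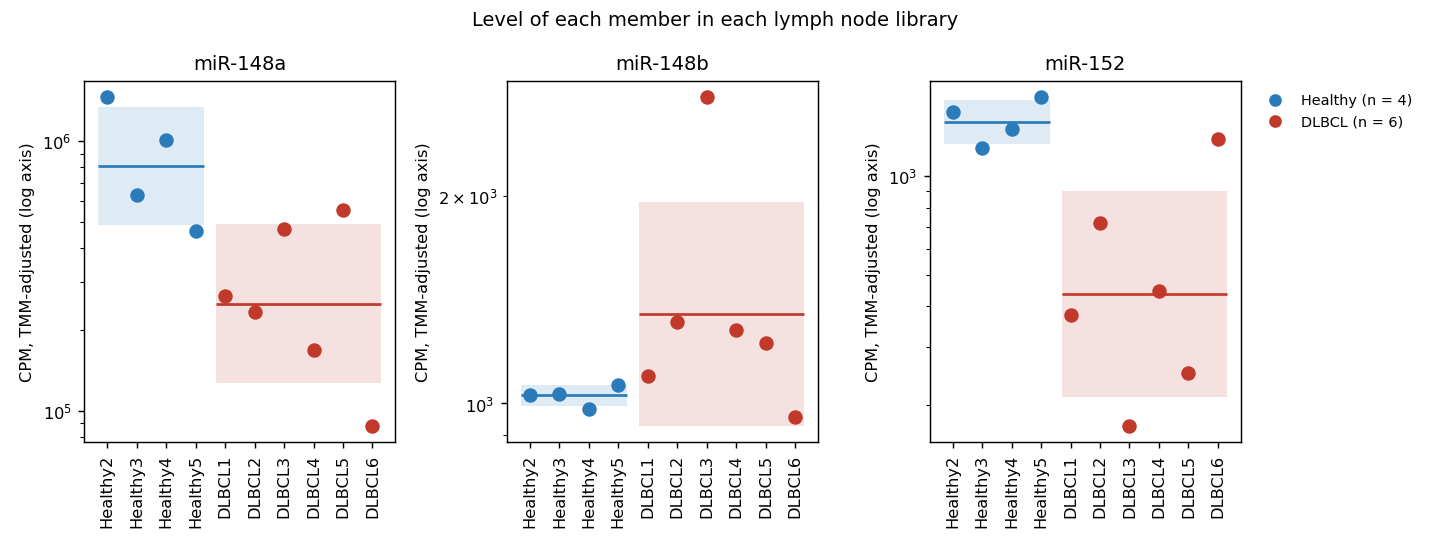
Points give the TMM-scaled CPM (log axis) of miR-148a, miR-148b and miR-152 in each library. Lines are the mean of log2 CPM and bands ± 1 SD on that scale for 4 healthy (blue) and 6 DLBCL (red) nodes. For miR-148a and miR-152 all 6 DLBCL nodes lie below the healthy median, whereas for miR-148b 5 of 6 lie above every healthy node.

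The members were next set against each other inside each library, where the scaling between libraries cancels. A ratio shows unequal change of its members and does not show which of them changed. The difference of mean log2 ratios was tested with an exact two-sided permutation test, adjusted over the 3 pairs. The members were chosen with earlier results of these data known. How many other pairs of miRNAs differ as much was not counted, so the adjusted p covers these 3 pairs only.

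The ratio of miR-148a to miR-148b reads was 436 to 1411 in healthy nodes and 91.9 to 454 in DLBCL nodes. DLBCL5 was the only DLBCL node in the healthy range, and the other 5 lay below every healthy node. The mean log2 ratio was 7.53 ± 0.79 in DLBCL (SD, n = 6) and 9.62 ± 0.76 in healthy nodes (SD, n = 4), a difference of -2.09 or 4.25-fold in the exact permutation test (p = 0.0143, adjusted p = 0.0357). The adjusted p was 0.0714 without Healthy2, without Healthy3 or without Healthy4, and the log2 difference then was -1.81, -2.21 and -1.96.

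The ratio of miR-148b to miR-152 was 0.611 to 0.848 in healthy nodes. It was 0.735 in DLBCL6, within that range, and 1.82 to 16.1 in the other 5 DLBCL nodes, with DLBCL3 at the top. The mean log2 ratio was 1.63 ± 1.48 in DLBCL (SD, n = 6) and -0.52 ± 0.20 in healthy nodes (SD, n = 4), a difference of 2.15 or 4.43-fold in the exact permutation test (p = 0.0238, adjusted p = 0.0357). Without any 1 of the 4 healthy nodes the adjusted p was 0.0714 to 0.107, and the log2 difference 2.08 to 2.24.

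The ratio of miR-148a to miR-152 was 266 to 923 in healthy nodes and 67.5 to 2750 in DLBCL nodes, so that the DLBCL nodes extended past the healthy ones on both sides. The mean log2 ratio was 9.17 ± 1.98 in DLBCL (SD, n = 6) and 9.10 ± 0.78 in healthy nodes (SD, n = 4), and the difference of 0.06 had p = 0.962 in the exact permutation test. The sign of this difference was not stable, with a range of -0.39 to 0.68 when 1 node was left out and a value of -1.79 in the lower Q30 group (exact permutation, adjusted p = 0.133).

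**Figure D3:**
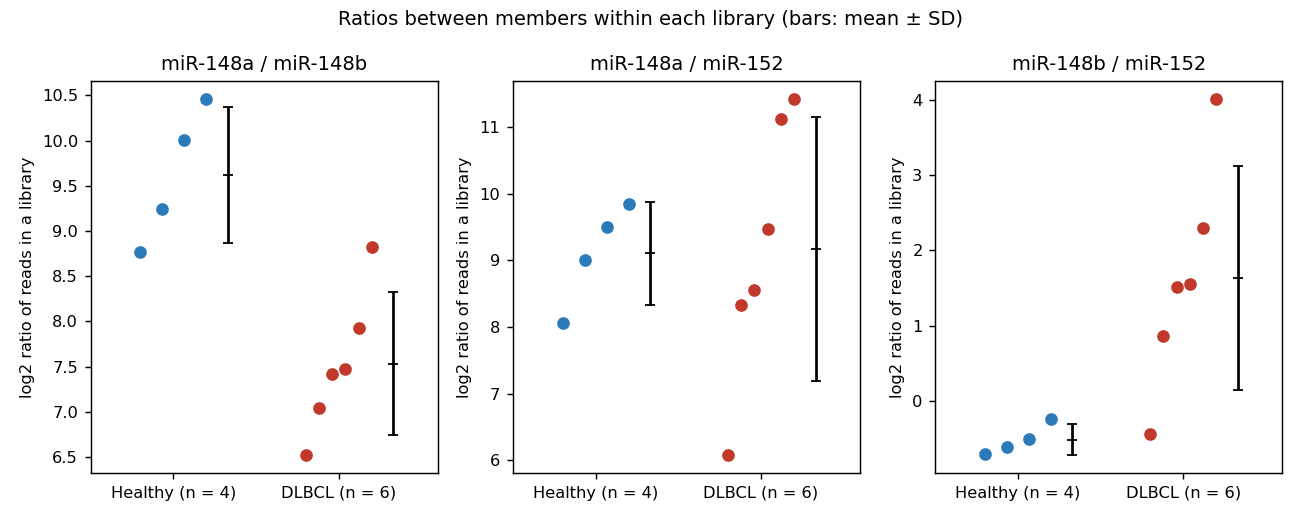
Points give the log2 ratio of the reads of a pair of members within each library (vertical axes) for 4 healthy and 6 DLBCL nodes (horizontal axes), sorted by value within a group, and bars the mean ± SD. In DLBCL the miR-148a to miR-148b ratio lies lower by 2.09 and the miR-148b to miR-152 ratio higher by 2.15, whereas the miR-148a to miR-152 ratio is spread about the healthy values.

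The levels of miR-148a and miR-152 ran in opposite directions among the 6 tumours, though not in every pair of them. Over the 6 DLBCL nodes log2 CPM of miR-148a and miR-152 had a Pearson r of -0.90 (exact permutation p = 0.0153, adjusted p = 0.0458 over the 3 pairs) and a Spearman rho of -0.89 (exact permutation p = 0.0333, adjusted p = 0.1). How many other pairs of miRNAs reach such an r was not counted. DLBCL6 had the lowest miR-148a and the highest miR-152, and DLBCL3 and DLBCL5 held the highest miR-148a and the lowest miR-152. DLBCL2 had more of both than DLBCL4, and DLBCL5 more of both than DLBCL3. Without the 2 nodes farthest from the median of miR-148a, DLBCL5 and DLBCL6, r was -0.80 over 4 nodes, too few for a test. With total miRNA reads, or those reads without miR-148a, as the scale, r was -0.89 and -0.88. The higher Q30 group holds 4 DLBCL nodes and the lower 2, too few for a correlation within either, and DLBCL6 and DLBCL4, the lowest in miR-148a, form the lower one.

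The other pairs gave no relation that held. miR-148a and miR-148b had r = 0.59 (exact permutation p = 0.233, rho = 0.37, adjusted p = 0.233 for r), which turned to -0.29 on total miRNA reads. miR-148b and miR-152 had r = -0.72 (exact permutation p = 0.11, rho = -0.49, adjusted p = 0.165 for r), which turned to 0.51 without DLBCL6 and DLBCL3. All members of a library share its scaling factor, which enters each of these values.

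**Figure D4:**
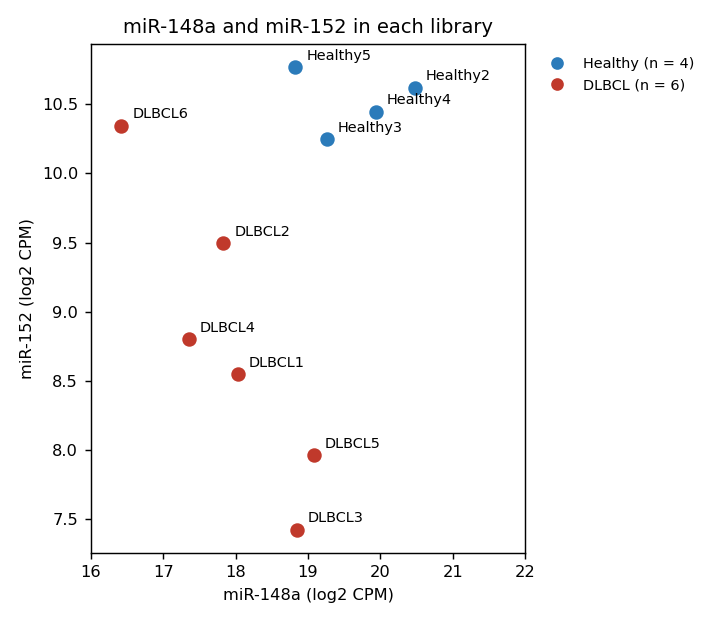
Each point is 1 lymph node, with log2 CPM of miR-148a on the horizontal and of miR-152 on the vertical axis. Among the 6 DLBCL nodes (red) the points run from DLBCL6 at the upper left to DLBCL3 and DLBCL5 at the lower right (r = -0.90), and the 4 healthy nodes (blue) lie at the upper right.

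The share of miR-148a and the share left for the other miRNAs add up to the whole library. Shares alone therefore cannot tell less miR-148a from more of the others. The reads outside miR-148a were 68.7% ± 7.80 of the library in DLBCL (SD, n = 6) and 39.0% ± 9.67 in healthy nodes (SD, n = 4). This share was 1.76-fold larger in DLBCL. As read counts, which also depend on depth, they were 7492159 to 16316514 in DLBCL and 9168274 to 14902329 in healthy nodes. The reads of miR-148a were 3194282 to 10044682 and 15842338 to 25541147. Scaled to mapped small RNA reads, the 247 tested miRNAs had a median log2 fold change of 0.23 in edgeR, and miR-148a had -1.59. Absolute amounts per node were not tested. On the scale of total miRNA reads the 247 tested miRNAs had a median log2 fold change of 0.82, against 0.13 with TMM, and 22 miRNAs were called higher and 1 lower in place of 9 and 5.

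On that scale the log2 fold changes in edgeR were -0.96 for miR-148a, 1.10 for miR-148b and -0.44 for miR-152. Taken relative to the median of all miRNAs they were -1.78, 0.28 and -1.26, and with TMM -1.71, 0.36 and -1.58. The direction of each member was thus the same on both scales. As a share of the reads outside miR-148a, miR-148b was 0.253% ± 0.0876 in DLBCL (SD, n = 6) and 0.203% ± 0.032 in healthy nodes (SD, n = 4), and miR-152 was 0.116% ± 0.112 and 0.295% ± 0.0754.

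**Figure D5:**
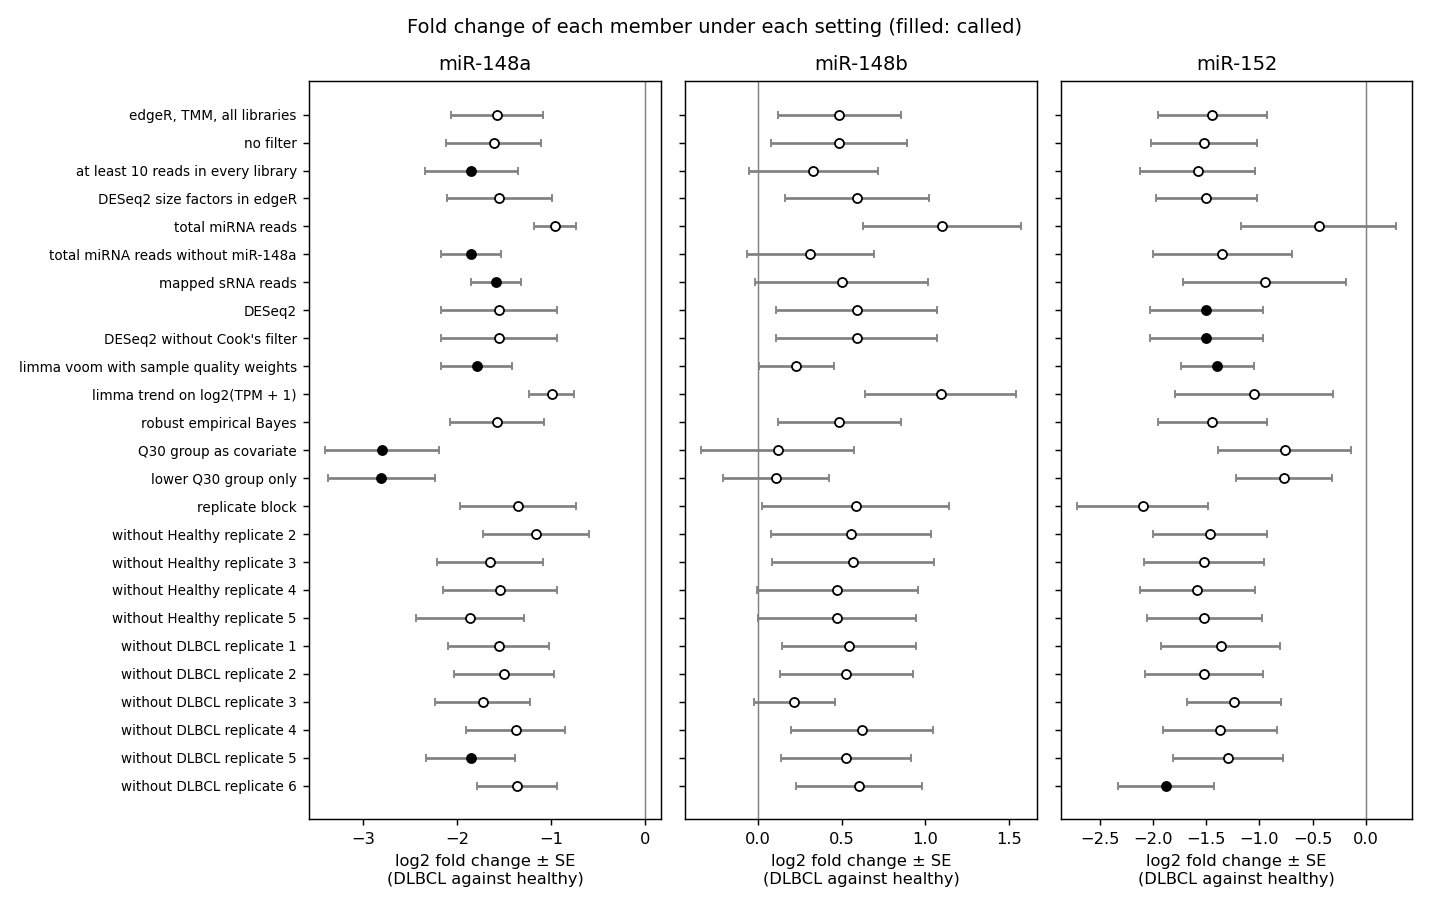
Points give the log2 fold change of each member (DLBCL against healthy nodes, horizontal axes) ± SE under the edgeR fit with TMM and 24 alternatives (vertical axis), filled where called. miR-148a and miR-152 lie below 0 and miR-148b above 0 in every setting, with 7 called for miR-148a, 4 for miR-152 and none for miR-148b.

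The miRNAs whose pattern was most like each member were named by the Pearson correlation of log2 CPM over the 10 libraries, among 244 other miRNAs. These correlations hold both groups and are a description. For miR-148a they were miR-150 (r = 0.80), an miRNA of mature lymphocytes, miR-10a (0.75) and miR-574 (0.75). Within the 6 DLBCL nodes their r with miR-148a was 0.74, 0.40 and 0.11. miR-150 was lower in DLBCL by a log2 fold change of -2.97 with an edgeR adjusted p of 0.00687. The mature lymphocyte list as a whole did not share this, with 2 of its 4 miRNAs negative and 2 positive. Besides miR-150, the log2 fold change was -0.77 for miR-342, 0.22 for miR-142 and 0.44 for miR-155, none of them called by edgeR. Their r with miR-148a was 0.50, -0.17 and 0.15.

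For miR-152 the closest were miR-127 (r = 0.96), miR-380 (0.93) and miR-381 (0.93), all from the imprinted DLK1-DIO3 region, and within the 6 DLBCL nodes r was 0.95, 0.96 and 0.88. Like miR-152, miR-127 was lowest in DLBCL3 (5.74 CPM) and reached 93.3 CPM in DLBCL6, within the 72.5 to 180 CPM of the healthy nodes. For miR-148b the closest were miR-8803 (0.92), miR-671 (0.88) and miR-450b (0.87), but without DLBCL3 these were 0.48, 0.28 and 0.68. Over the 10 libraries the members themselves had r = -0.02 for miR-148a and miR-148b, 0.19 for miR-148a and miR-152, and -0.75 for miR-148b and miR-152.

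miRNAs that mark other cell types were set beside the members. The pancreas miRNAs (miR-216a, miR-216b and miR-217) were looked at because miR-148a is abundant in pancreas. They summed to 914 to 1950 CPM in healthy nodes and 17.5 to 662 in DLBCL nodes, with no overlap of the sums, of which miR-216b made up most. Of all miRNAs tested singly, 13.0% had no overlap, and 6.07% had none and were lower in DLBCL. None of the 3 was called by edgeR, with a median log2 fold change of -2.84 against 0.13 over all miRNAs. All 3 were lower at an unadjusted p under 0.05, against 9.31% of all miRNAs, and DESeq2 called 2 of them lower, miR-216b and miR-217, against 4.05% of all. Their part in the miR-148a difference was not tested. By the study's methods the DLBCL nodes were peripheral ones, and the site of the healthy nodes is not given in the sources used here. miR-375 of pancreatic islets had a mean of 3.07 ± 2.96 CPM in healthy nodes (SD, n = 4) and 12.6 ± 29.4 in DLBCL nodes (SD, n = 6), where DLBCL3 held 72.6 CPM, and was not called. miR-122, which marks liver, was at 0.257 to 2.28 CPM in healthy and 0.753 to 11.1 CPM in DLBCL nodes, near 0 beside miR-148a.

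The stroma and vessel list had 8 of 9 miRNAs in the table, and 7 of these 8 had a negative log2 fold change, with a median of -0.52. None was called by edgeR or DESeq2, and 1, miR-125b, had an unadjusted p under 0.05 in edgeR. Their sum was 54388 to 252290 CPM in DLBCL and 84426 to 146470 in healthy nodes. DLBCL5 was highest and DLBCL6 lowest, the reverse of the order of these nodes in miR-152. The abundant miR-99a, miR-143 and miR-10b make up most of this sum. Their r with miR-152 over the 10 libraries was 0.23, 0.09 and -0.46, whereas the other 5 had 0.65 (miR-145), 0.76 (miR-125b), 0.85 (miR-126), 0.90 (miR-199) and 0.90 (miR-214). miR-199 and miR-214 are known from fibroblasts, and miR-199 was lowest in DLBCL3 (239 CPM) and highest among the DLBCL nodes in DLBCL6 (3027 CPM). The r of the red blood cell miRNAs miR-451, miR-144 and miR-486 was -0.56, -0.92 and -0.23 with miR-148a, -0.75, -0.31 and -0.93 with miR-152, and 0.42, 0.12 and 0.83 with miR-148b. The part of these cells in the differences of miR-148a and miR-152 was not tested.

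The family shares its known target DNMT1 or related methyltransferases with other miRNAs, such as the miR-29 family. Of 9 such miRNAs 4 had a positive and 5 a negative log2 fold change, with a median of -0.03, and none was called by edgeR. At an unadjusted p under 0.05 there were 2 of the 9, miR-29c and miR-194, both higher, against 43 of the 247 (17.4%), and DESeq2 called the same 2, against 12.6% of all. miR-29c was at 83.0 ± 72.6 CPM in DLBCL (SD, n = 6) and 21.9 ± 12.0 in healthy nodes (SD, n = 4), with a log2 fold change of 1.92 and an edgeR adjusted p of 0.109. Over the 10 libraries the r of these 9 miRNAs with miR-148a ran from -0.90 for miR-29c to 0.50 for miR-342.

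Of 11 miRNAs with known roles in B-cell differentiation, 4 had a positive and 7 a negative log2 fold change, with a median of -0.36 against 0.13 over all miRNAs, and 2 of the 11 were called by edgeR, both lower in DLBCL, against 2.02% of all. These were miR-150 and miR-146a, a brake on inflammatory signalling, whose log2 fold change was -1.46 with an edgeR adjusted p of 0.0397. miR-155, a driver of B-cell activation, had 0.44 with an adjusted p of 0.568, and miR-21 had 0.11 with 0.859. An unadjusted edgeR p under 0.05 was reached by 5 of the 11, against 26.7% of all. Besides miR-150 and miR-146a these were miR-181a and miR-125b, with negative log2 fold changes (-1.49 and -1.42), and miR-17, with a positive one (1.61). DESeq2 called 3 of the 11, miR-150, miR-146a and miR-17, against 16.6% of all.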

How the data were processed

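Small RNA libraries of 10 canine lymph nodes were prepared by the study with a kit for small RNA and sequenced. Per the labels and the study's methods, the authors mapped reads with Bowtie 0.12.9 to CanFam3.1, counted known miRNAs and compared groups with DESeq2 1.12.0. The deposited table gives raw counts per miRNA, where the names of the members carry no arm, and TPM, which the authors made by scaling each library's miRNA reads to a common total. The groups followed the disease state in the labels. Counts were tested with edgeR 4.0.16 (TMM, filterByExpr, quasi-likelihood, 6 against 4 libraries, the SE being the fold change over the root of F) in R 4.3.3, with limma 3.58.1 and DESeq2 1.42.0 as alternatives on the same miRNAs. CPM used the TMM-scaled library size, and log2 CPM a prior count of 2. Shares, ratios and exact permutation tests were computed with scipy 1.17.1. Q30 group and mapped small RNA reads came from the study's sequencing statistics. No pair of libraries of the same group agreed within sampling noise. The edgeR fit was tested on simulated counts with 40 changed miRNAs in each of 10 runs. It recovered 6.25% of changes at a log2 fold change of 1.5, 34.75% at 2 and 81.5% at 3. It made 0 calls where no change was put in. Members, marker lists and tests were chosen with earlier results of these data known. The text names the 3 members, the 3 miRNAs most correlated with each, and members of the lists. Those sharing the family's seed were not looked for, since sequences were not used here. Marker miRNAs were matched by name, and miR-100 and miR-133a were not matched. The lists overlap, as for miR-143 and miR-126. The muscle list (2 of 3 matched, none called), miR-223 of myeloid cells (log2 fold change 0.09) and the islet and epithelium list (3 of 5 tested, none called) were checked as well, with 0 calls in DESeq2 and 0 at an unadjusted edgeR p under 0.05. Depth was 10686441 to 34709421 miRNA reads per library.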

Additional observations from a re-analysis of the deposited data

Results flagged for a closer look

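In a group of 4 to 10 libraries a value was marked when its gap to the nearest library, as a share of the group's range, passed Dixon's 95% limit, which chance alone passes in about 1 in 20 groups. Of 18 groups of values tested for the members, 2 held such a library. miR-148b in DLBCL3 was at 2774 CPM, with a gap of 0.803 of the range of the 6 DLBCL nodes against a limit of 0.625. miR-152 in DLBCL6 held 0.264% of the miRNA reads, with a gap of 0.651 of the range against the same limit.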

How the results depend on the processing

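Each member kept its direction under all 24 alternatives. The Q30 covariate and the lower Q30 group rest on the same comparison, DLBCL4 and DLBCL6 against the healthy nodes. miR-148a was called in 7, with edgeR log2 fold changes (adjusted p) of -1.85 (0.0393) with at least 10 reads in every library, -1.86 (0.00552) on total reads without miR-148a, -1.59 (0.00247) on mapped small RNA reads, -2.80 (0.0271) with the Q30 group as covariate and -2.81 (0.015) in the lower Q30 group, with -1.79 (0.00478) in limma voom with quality weights, and without 1 library it ranged from -1.86 to -1.16. miR-152 was called in 4, at -1.50 (0.0307) in DESeq2, -1.50 (0.0314) without its Cook's filter and -1.40 (0.0118) in limma voom, and without 1 library ranged from -1.88 to -1.24. The count of 14 calls was 8 with DESeq2's size factors, 23 on total reads, 7 on mapped reads, 41 in DESeq2, 44 without its Cook's filter, 46 in limma voom, 7 with the Q30 covariate and 46 in the lower Q30 group. Without 1 library it ranged from 1 (without Healthy4) to 23 (without DLBCL4). The cause was not tested.

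Equal replicate numbers did not pair libraries (correlations of deviations 0.26, -0.01, -0.30 and -0.33 for numbers 2 to 5). With the replicate block the count was 1, the edgeR fold changes were -1.35 (adjusted p 0.291), 0.58 and -2.10 (0.127), and the log2 ratios of miR-148a to miR-148b and of miR-148b to miR-152 differed by -1.93 and 2.69 (exact permutation, adjusted p 0.375 each).

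In the lower Q30 group the 3 log2 ratios (miR-148a to miR-148b, miR-148a to miR-152, miR-148b to miR-152) differed by -2.84, -1.79 and 1.05, with an exact permutation adjusted p of 0.133 each, where 0.0667 is the smallest raw p. Untransformed, the miR-148b to miR-152 ratio differed by 4.19 (exact permutation, adjusted p 0.15). Leaving out 1 library gave -2.37 to -1.81, -0.39 to 0.68 and 1.67 to 2.56. In DLBCL, r of miR-148a and miR-148b was -0.29 on total reads and -0.019 on those without miR-148a, r of miR-148b and miR-152 was 0.38, 0.13 and, without 2 libraries, 0.51, and r of miR-148a and miR-152 was -0.80 without 2 libraries.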
